A study of Mus musculus with 24 samples.

Results

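The 7 genes described here are the glucocorticoid receptor gene Nr3c1, the related mineralocorticoid receptor gene Nr3c2, the hormone-activating enzyme gene Hsd11b1 and 4 established target genes of the receptor, Fkbp5, Tsc22d3, Zbtb16 and Sgk1. They were taken by symbol from the deposited expression table, which lists 52089 gene symbols over 168326 transcript entries, and each gene was followed through its RefSeq messenger entry with the highest mean RPKM (reads per kilobase of transcript, scaled to the mapped total of the library). The 24 libraries came from primary brite adipocytes, white-fat cells with a thermogenic program, whose precursors had been isolated with the stromal-vascular cells of the inguinal white fat depot of 129SvEv mice. All cells, control cells included, had gone through 2 days of induction and then 1 day of differentiation, both with rosiglitazone, before they were reverse transfected with 50 nM locked nucleic acid gapmers. The gapmers were directed at the long noncoding RNA Ctcflos (KD) or at no mouse transcript (NC), and cells were harvested 24 h or 72 h later, with 6 libraries in each of the 4 groups.

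Some limits of the groups as models come from the methods. Dexamethasone, a synthetic glucocorticoid, was part of the induction mixture and is not among the listed components of the differentiation medium, so both harvests followed the removal of an added receptor agonist. The cells harvested at 72 h had received fresh differentiation medium at 24 h. The study used several gapmers against Ctcflos. Its legends describe transcriptomes at this stage for a gapmer against transcript 1 and for another against other transcripts of the gene. Its text adds that the later global transcriptome work focused on transcript 1. The labels name no gapmer, so which of them these libraries received is not known. The study's legends call the replicates of such transcriptomes biological, while the labels do not say whether they came from separate cultures or animals. The p-values therefore measure only the spread between these samples.

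Glucocorticoids act through a receptor that waits in the cytoplasm in a complex with Hsp90 and its cochaperones. When the hormone binds, the receptor moves to the nucleus and raises or lowers transcription of its target genes, often from a palindromic DNA element. The hormone supply of a fat cell also depends on 11β-hydroxysteroid dehydrogenase type 1, the product of Hsd11b1, which regenerates active hormone from its inert keto form. Among the targets, Fkbp5 encodes a cochaperone that lowers the receptor's affinity for hormone, Tsc22d3 encodes the leucine zipper protein GILZ, Zbtb16 encodes the zinc finger repressor PLZF and Sgk1 encodes a serum- and glucocorticoid-regulated kinase. In fat cell cultures, glucocorticoids are a usual part of the mixtures that start differentiation.

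The promoter sequences are shown for the 2 targets whose levels passed the test below, because they show how different the start sites of these genes are. RefSeq windows on build GRCm38.p6, reaching from 250 bases before to 50 bases after each annotated start, existed for 5 of the 7 genes and numbered 12, of which 6 belonged to Sgk1 and 3 to Tsc22d3. They were searched on both strands for the receptor's palindrome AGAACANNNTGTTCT and for its half-site AGAACA, which the palindrome contains. The palindrome was present in 1 of the 12 windows, at an internal start of Sgk1, and in 3 of all 32851 windows of this length (0.00913%). The half-site was present in 4 of the 12 windows and in 19.0% of all windows. The stretches below hold the 250 bases before the start, 5′ to 3′ on the strand of the gene, with palindromes and half-sites of either strand in capitals.
Sgk1, start with the palindrome, plus strand, chr10:21993640-21993889: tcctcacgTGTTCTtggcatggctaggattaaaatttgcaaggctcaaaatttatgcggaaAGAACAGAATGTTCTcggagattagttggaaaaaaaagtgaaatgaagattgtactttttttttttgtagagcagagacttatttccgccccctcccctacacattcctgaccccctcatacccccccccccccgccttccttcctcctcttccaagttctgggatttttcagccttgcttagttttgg
Sgk1, start nearest to the 3′ end of the gene, plus strand, chr10:21994416-21994665: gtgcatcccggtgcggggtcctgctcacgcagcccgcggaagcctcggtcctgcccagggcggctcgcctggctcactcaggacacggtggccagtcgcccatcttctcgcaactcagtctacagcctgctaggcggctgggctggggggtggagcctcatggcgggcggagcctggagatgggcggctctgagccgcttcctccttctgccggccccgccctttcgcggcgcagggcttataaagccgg
Tsc22d3, start nearest to the 3′ end of the gene, minus strand, chrX:140542669-140542918: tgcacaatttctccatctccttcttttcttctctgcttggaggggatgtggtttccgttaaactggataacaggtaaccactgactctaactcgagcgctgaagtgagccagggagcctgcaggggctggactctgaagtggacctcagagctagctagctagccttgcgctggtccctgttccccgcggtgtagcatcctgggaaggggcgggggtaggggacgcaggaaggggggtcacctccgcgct
Tsc22d3, start farthest from the 3′ end of the gene, minus strand, chrX:140600523-140600772: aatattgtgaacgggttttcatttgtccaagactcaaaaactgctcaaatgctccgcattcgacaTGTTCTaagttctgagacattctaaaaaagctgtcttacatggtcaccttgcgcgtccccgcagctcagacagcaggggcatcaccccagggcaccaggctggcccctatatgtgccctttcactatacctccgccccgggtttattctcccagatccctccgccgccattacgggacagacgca
Counted from the start, with -1 as the base before it, the palindrome of the first stretch began at -189, and a further half-site lay upstream of it. The far start of Tsc22d3 had 1 half-site, at -185, and the near start had none. These are matches of letters and not shown to be binding sites, and response elements of these genes that lie farther away are outside such windows. Fkbp5, whose best-known response elements are intronic, held neither motif, nor did Hsd11b1 and Nr3c2.

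The libraries held between 1391832 and 5926375 mapped reads, with a median of 4009998. Replicates 2 and 3 of NC 72 h differed by less than the sampling noise and were averaged and counted as 1 sample, so this group had n = 5. Another 2 libraries stood apart, KD 24 h replicate 6 and NC 72 h replicate 6. The first had the lowest depth, and in the second 14.9% of low read numbers were odd against 53.7% to 55.5% elsewhere. The second also had the highest mapped total, and whether that total is too high was not tested. The read numbers recovered for this library rest on that total, so they and the read sums of NC 72 h share this limit. By their deviations from the group means the libraries also split into 2 clusters, the larger with 4 libraries of each group and the smaller with 2. The target of the gapmers checked the labels. The entry of transcript 1 held 12 reads in the 6 control libraries and 8 in the 6 knockdown libraries at 24 h, with deposited RPKM of 0.159 to 0.792 and 0 to 0.961, and 41 and 3 reads at 72 h, with 0 to 2.32 and 0 to 0.494, so the groups overlapped at both times. The RefSeq entry of the gene, a further transcript, held 60 and 12 reads at 24 h, with mean deposited RPKM of 0.741 and 0.189, and 101 and 17 reads at 72 h, with means of 1.18 and 0.231. On that entry the groups overlapped at 24 h and did not at 72 h. Adipocyte markers were high in all groups. The summed level of Adipoq, Fabp4, Plin1, Cidec, Lipe and Pparg was never below 25497 scaled RPKM. Most of it came from Fabp4, with a mean of 25217 in KD 72 h against 1032 for Adipoq. The sum was at most 31.7 for 6 macrophage markers and at most 1.59 for 5 endothelial markers. For 6 preadipocyte markers it ran from 393 to 1031, mostly from Ly6a, so precursors were not shown to be absent. Scaled RPKM is the deposited RPKM divided by a trimmed-mean factor for each sample, and it is the scale of all levels below unless another is named.

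In control cells at 24 h the members spanned a wide range of levels. On this scale Tsc22d3 was the highest at 24.1 ± 3.96 scaled RPKM (SD, n = 6), followed by Nr3c1 at 13.9 ± 1.39, Hsd11b1 at 9.55 ± 2.45, Sgk1 at 8.51 ± 2.03 and Fkbp5 at 1.85 ± 0.378. The range of Tsc22d3 lay above that of Nr3c1 without overlap, and that of Fkbp5 lay below that of Sgk1, while Nr3c1 overlapped with Hsd11b1 and Hsd11b1 with Sgk1. Zbtb16 and Nr3c2 lay far below, at 0.227 ± 0.175 and 0.0870 ± 0.117, and overlapped with each other. The libraries were made from the 3′ ends of transcripts, and RPKM divides by the full length, so long entries such as the 6329-base entry of Nr3c1 are set lower than short ones such as the 1348-base entry of Hsd11b1 at the same read number. The order therefore depends on the scale, and in read numbers of NC 24 h Nr3c1 came first, with 2169 against 1138 for Tsc22d3. The 5 higher genes passed the filter on low values, which asked for a level worth 10 reads at the median depth in a number of samples equal to the smaller group, and for 15 reads in all. Their read sums over 24 libraries ran from 746 for Fkbp5 to 9284 for Nr3c1.

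**Figure D1:**
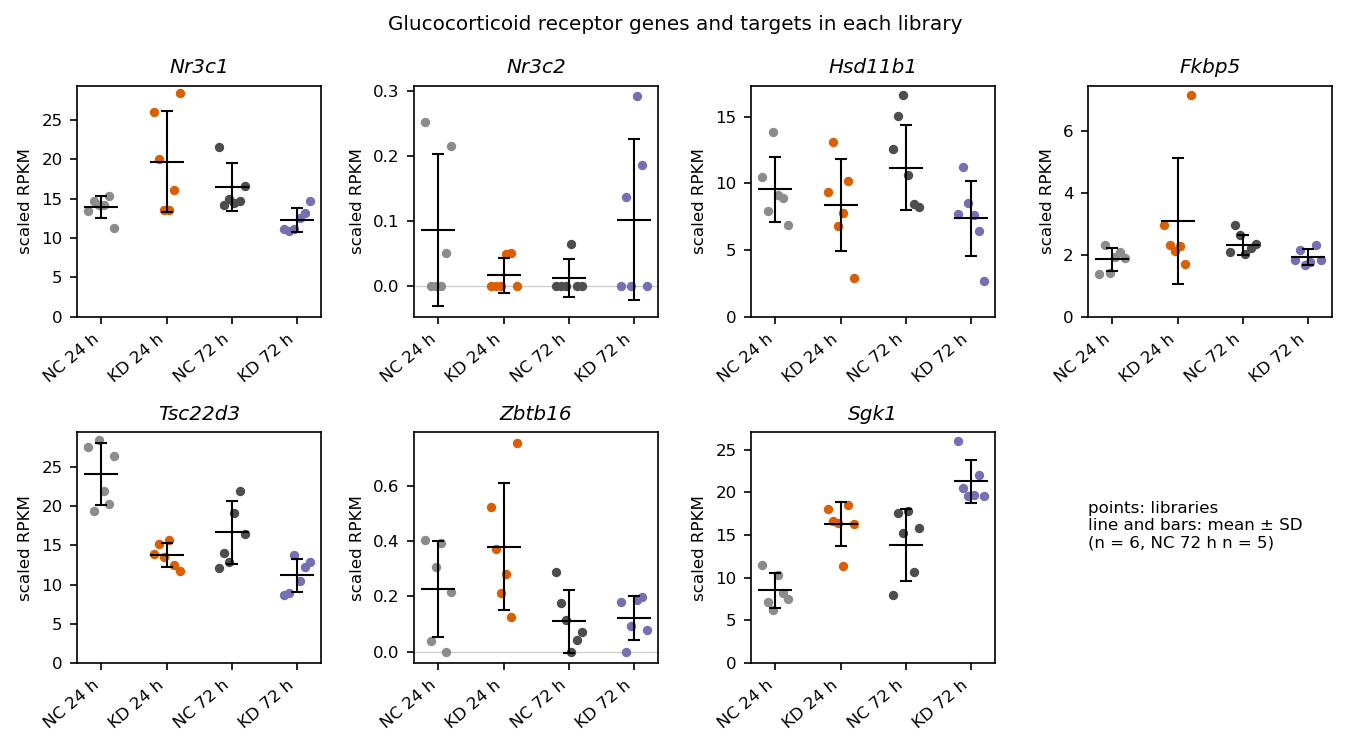
Scaled RPKM (y axis, linear, one scale per gene) of the 7 genes in each library, by group (x axis), with the mean and SD of the samples as a line and bars. The points were scaled with all libraries separate, so they differ slightly from the sample levels in the text and bars. Tsc22d3 of KD 24 h lay between 11.7 and 15.7, below all control libraries of 24 h. Sgk1 of KD 72 h lay between 19.6 and 26.0, above all control libraries of 72 h.

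Nr3c1, the receptor gene on the minus strand of chromosome 18 (39410545 to 39519421 in GENCODE M21, GRCm38), was well measured, with 246 to 681 reads in a library. Its levels ran from 11.4 to 15.4 with a median of 14.2 in NC 24 h, and from 13.6 to 28.5 with a median of 18.2 in KD 24 h. The KD 24 h libraries were uneven, with replicates 1, 2 and 6 at 26.2, 20.1 and 28.5 and replicates 3, 4 and 5 at 13.6, 13.6 and 16.2. The log2 fold change at 24 h was 0.46 ± 0.19 (SE), with an adjusted p of 0.099 in limma. At 72 h the 5 control samples read 21.6, 14.7, 14.6, 14.8 and 16.7, and the knockdown libraries ran from 10.9 to 14.7 with a median of 11.9. Here 5 of 6 knockdown libraries lay below the lowest control sample, and the log2 fold change was -0.40 ± 0.14, with an adjusted p of 0.052. In the test of the difference between the effects at the 2 times, 0 of the 5 tested members passed in limma, against 0.192% of all entries (0.116% higher and 0.0757% lower). At an unadjusted p under 0.05 the count was 2, Nr3c1 and Fkbp5, and with voom it was 0. For Nr3c1 the difference was -0.85 ± 0.24 on the log2 scale, with an unadjusted p of 0.0017 and an adjusted p of 0.14. Neither effect of the knockdown on Nr3c1, nor their difference, passed the threshold of 0.05.

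These values of Nr3c1 depended on which libraries entered. Within the larger cluster the log2 fold changes were 0.64 at 24 h (adjusted p = 0.033 in limma) and -0.59 at 72 h (adjusted p = 0.022), and the difference of -1.25 passed the test (adjusted p = 0.023). Within the smaller cluster, with 2 libraries in a group, they were 0.05 and -0.06, with a difference of -0.11 (adjusted p = 0.89). The clusters were cut from these same data, so passing within 1 of them describes the libraries and is no further test. Leaving out KD 24 h replicate 3 or 4 also brought the 24 h value past the threshold (0.55 without either), and the 72 h value passed in 6 of 21 alternatives, among them voom (-0.39, adjusted p = 0.026), the fit without KD 72 h replicate 6 (-0.45, adjusted p = 0.036) and that without NC 72 h replicate 2 (-0.41, adjusted p = 0.048). Of the 10 table entries of Nr3c1 that were tested, 2 passed at 72 h. They were 2 short entries with log2 fold changes of -0.45 and -0.49, and all 10 entries lay between -0.49 and -0.13.

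Nr3c2 encodes the mineralocorticoid receptor, which binds the same hormones. Its entry held 21 reads in all 24 libraries together, with none in 15 of them and at most 5 in 1. The read sums were 8 in NC 24 h, 2 in KD 24 h, 1 in NC 72 h and 10 in KD 72 h. A count of 0 allows up to 3 reads, equal to 0.124 to 0.527 RPKM for this entry depending on the library, and this limit covers counting error only. The gene was below the filter, and 2-sided exact permutation tests of its deposited RPKM gave p = 0.39 for control cells over time, p = 0.30 for the knockdown at 24 h and p = 0.24 at 72 h. Together with 3 tests of Zbtb16 these were 6 tests, none of which was below 0.05 before adjustment. Other table entries of Nr3c2 held up to 70 reads in all and were below the filter as well. A difference in Nr3c2 was not detectable at this depth.

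Hsd11b1, on the minus strand of chromosome 1 (193221634 to 193264075), had 6 to 77 reads in a library. In NC 24 h its levels ran from 6.91 to 13.9 with a median of 9.03, and in KD 24 h from 2.86 to 13.1 with a median of 8.58. The log2 fold change was -0.27 ± 0.30 with an adjusted p of 0.52. The lowest library, KD 24 h replicate 6, held 6 reads, and without it the value was -0.01. At 72 h the control samples read 12.6, 15.9, 10.6, 8.43 and 8.27, and the knockdown libraries ran from 2.68 to 11.2 with a median of 7.66. Of the 6 knockdown libraries 4 lay below every control sample, and the log2 fold change of -0.66 ± 0.30 missed the threshold (adjusted p = 0.13). Without KD 72 h replicate 6, again the lowest library, it was -0.40 (adjusted p = 0.19), and with the replicate number as a block it passed (-0.73, adjusted p = 0.046).

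Over time in control cells, none of the 5 tested members passed, against 9.12% of all entries tested (4.63% higher and 4.49% lower). At an unadjusted p under 0.05 the count was 2, Tsc22d3 and Sgk1, and with voom on read numbers recovered from the RPKM steps 1 of 5 passed, which was Sgk1. Tsc22d3 averaged 24.1 ± 3.96 at 24 h and 16.7 ± 4.01 at 72 h, a log2 fold change of -0.54 ± 0.17 (adjusted p = 0.059 in limma). Of the 5 samples of 72 h 4 lay below all those of 24 h. Sgk1 averaged 8.51 ± 2.03 at 24 h and 13.8 ± 4.25 at 72 h, a log2 fold change of 0.67 ± 0.22 (adjusted p = 0.079). Without NC 72 h replicate 1, which held the lowest value of its group at 8.0, Sgk1 passed (0.84, adjusted p = 0.022), and without NC 72 h replicate 5, which held the highest value of Tsc22d3 in its group at 21.9, Tsc22d3 passed (-0.65, adjusted p = 0.022). Nr3c1, Hsd11b1 and Fkbp5 had values of 0.24 ± 0.13, 0.22 ± 0.20 and 0.33 ± 0.20, with adjusted p of 0.31, 0.58 and 0.37.

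The knockdown moved 2 of the 5 tested members at 24 h, against 22.7% of all entries tested (11.1% higher and 11.6% lower), and they moved in opposite directions. Tsc22d3 fell and Sgk1 rose. On 5 genes a count of 2 is too small to be read as a share above or below that of all entries. Both genes also passed at 72 h, again 2 of 5 against 22.3% of all entries (10.3% higher and 12% lower), and the directions were the same. The comparisons at the 2 times use different control libraries, and for neither gene did the effects differ by the test of the difference itself.

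Tsc22d3, on the minus strand of the X chromosome (140539528 to 140600659), had between 36 and 236 reads in a library. Its levels ran from 19.4 to 28.5 with a median of 24.3 in NC 24 h, and from 11.7 to 15.8 with a median of 13.7 in KD 24 h. All 6 knockdown libraries lay below all 6 control libraries. The mean level with the knockdown was 0.573 of the control mean, and the log2 fold change was -0.77 ± 0.14 (adjusted p = 0.0019 in limma). At 72 h the control samples read 12.2, 13.5, 19.2, 21.9 and 16.6, and the knockdown libraries ran from 8.64 to 13.8 with a median of 11.4. Here the groups overlapped, with 3 of 6 knockdown libraries below the lowest control sample, and the log2 fold change was -0.56 ± 0.18 (adjusted p = 0.041). The difference between the effects at the 2 times was 0.23 ± 0.22 (adjusted p = 0.73).

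The call at 72 h was a close one. On the deposited scale, without factors for the samples, the median of all entries at 72 h was 0.25 on the log2 scale, and Tsc22d3 on that scale was at -0.31 (adjusted p = 0.24). Without NC 72 h replicate 5 it was at -0.45 (adjusted p = 0.10), and without NC 72 h replicate 6, the library with few odd read numbers, at -0.56 (adjusted p = 0.071). It also missed the threshold without KD 72 h replicate 1, 2 or 4 and without NC 72 h replicate 4, with adjusted p between 0.069 and 0.088. With no filter on low values, and in each cluster of libraries alone, Tsc22d3 missed at 72 h as well. At 24 h it passed in all leave-one-out fits, from -0.84 to -0.73.

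Other table entries of Tsc22d3 gave like values. The chosen entry of 1972 bases and 5 others held 2971 to 3133 reads each over all libraries, and all 6 passed at 24 h, with log2 fold changes between -0.79 and -0.76. At 72 h 4 of these 6 passed, between -0.56 and -0.53 over all 6. Another 2 entries held 237 and 245 reads, and GENCODE places the latter at the far start of the gene, at 140600659. Their log2 fold changes at 24 h, -1.03 ± 0.66 and -1.11 ± 0.63, had wide errors, with adjusted p of 0.27 and 0.21.

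Sgk1, on the plus strand of chromosome 10 (21882184 to 21999903), had between 48 and 272 reads in a library. Its levels ran from 6.25 to 11.5 with a median of 7.87 in NC 24 h, and from 11.4 to 18.6 with a median of 16.6 in KD 24 h. Of the 6 knockdown libraries 5 lay above all control libraries, and the exception, replicate 4 at 11.4, lay just under the highest control library. The mean was 1.91 times the control mean, and the log2 fold change was 0.96 ± 0.18 (adjusted p = 0.0025 in limma). At 72 h the control samples read 8.0, 16.5, 17.9, 10.7 and 15.9, and the knockdown libraries ran from 19.6 to 26.1 with a median of 20.1. The groups did not overlap, the mean was 1.54 times that of the controls, and the log2 fold change was 0.68 ± 0.19 (adjusted p = 0.021). The difference between the effects at the 2 times was small beside its error and did not pass (-0.27 ± 0.27, adjusted p = 0.74). The call at 72 h was lost in 3 of 21 alternatives, without NC 72 h replicate 5 (0.60, adjusted p = 0.055), with the replicate number as a block (0.70, adjusted p = 0.072) and in the smaller cluster alone (0.60, adjusted p = 0.18).

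The entries of Sgk1 could not tell its start sites apart. The 8 tested entries held between 3418 and 3523 reads each, nearly the same reads counted again. All 8 passed at 24 h, with log2 fold changes between 0.96 and 0.99, and all 8 passed at 72 h, between 0.68 and 0.69. The start that carries the palindrome and the other starts could not be told apart in these values.

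Fkbp5, on the minus strand of chromosome 17 (28399094 to 28517527), is among the most responsive glucocorticoid targets in many tissues. It had 14 to 45 reads in a library and levels that ran from 1.38 to 2.34 with a median of 1.92 in NC 24 h, and from 1.69 to 7.16 with a median of 2.30 in KD 24 h. The top value belonged to replicate 6, the library of lowest depth, and the other 5 lay at 2.98 or below. The log2 fold change was 0.58 ± 0.31 (adjusted p = 0.18), and without replicate 6 it was 0.30. At 72 h the control samples read 2.11, 2.83, 2.04, 2.23 and 2.35, the knockdown libraries ran from 1.67 to 2.33 with a median of 1.83, and the log2 fold change was -0.24 ± 0.19 (adjusted p = 0.38). Fkbp5 did not pass in any alternative at either time.

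Zbtb16, on the minus strand of chromosome 9 (48654297 to 48836222), held 93 reads in all libraries together and 0 to 11 in a library. Its deposited RPKM averaged 0.215 in NC 24 h, 0.391 in KD 24 h, 0.102 in NC 72 h and 0.137 in KD 72 h. The exact permutation tests gave p = 0.23 for control cells over time, p = 0.22 for the knockdown at 24 h and p = 0.57 at 72 h.

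**Figure D2:**
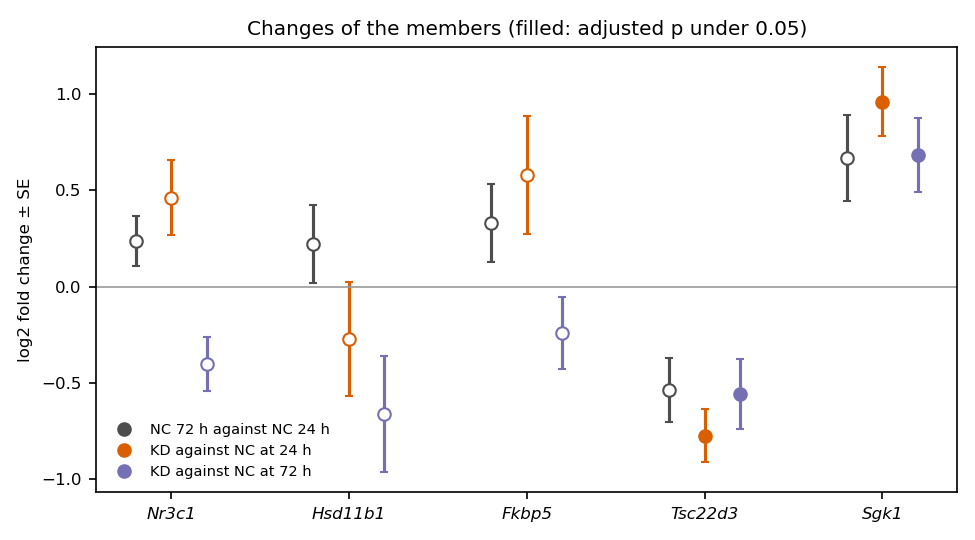
Log2 fold change with its SE (y axis) of the 5 tested members (x axis) in control cells over time and with the knockdown at each time. Filled points passed the threshold, and they are Tsc22d3 (-0.77 and -0.56) and Sgk1 (0.96 and 0.68) with the knockdown at 24 h and 72 h.

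Of the 3 tested targets 1 rose, 1 fell and 1 did not pass at each time. Over all 23 samples, which include the differences between groups, the log2 levels of Tsc22d3 and Sgk1 had a Pearson r of -0.76 and those of Nr3c1 and Fkbp5 one of 0.68, given here as a description.

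Gene length moved with the knockdown effect in general. At 24 h the log2 fold changes of genes that span over 100 kb had a median of -0.49 and those of genes under 20 kb one of 0.09, and at 72 h the medians were -0.32 and 0.07. Sgk1 spans 118 kb from its farthest start and Tsc22d3 61.1 kb, while Nr3c1 spans 109 kb and Fkbp5 118 kb. The part of length in the members' values was not tested. In bulk samples, fewer cells of a type and less RNA per cell cannot be told apart.

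Many genes of the complex that holds the receptor rose. Of 12 listed chaperones and cochaperones, 7 of 11 tested rose at 24 h and none fell, against 11.1% of all entries that rose, with a median of 0.47 where the median of all entries was -0.01. The largest rises were those of Hsp90aa1 (0.93 ± 0.18, adjusted p = 0.0027 in limma) and Hsp90ab1 (0.92 ± 0.14, adjusted p = 0.00062), the 2 cytoplasmic Hsp90 genes. At 72 h 6 of 12 rose and none fell, against 10.3% of all entries, with a median of 0.41, led by Hspa4 (0.88 ± 0.11), an Hsp70 relative, and Hsp90ab1 (0.78 ± 0.08). Hsp90ab1 averaged 192 ± 8.67 in NC 24 h and 367 ± 82.6 in KD 24 h, and 170 ± 10.8 in NC 72 h and 290 ± 15.8 in KD 72 h. In the smaller cluster alone 4 of 11 rose at 24 h and 2 of 12 at 72 h, with 1 that fell, and without KD 72 h replicate 6 there were 6 of 11 that rose and 1 that fell. These genes serve many clients, and the receptor is 1 of them. In control cells over time 1 of 11 passed, St13, an Hsp70-binding cochaperone, which fell by 0.32. This call was lost without any of NC 24 h replicates 1, 2 and 4 and NC 72 h replicates 1, 5 and 6. With the knockdown at 24 h, Hspa4 and St13 were among the 7 that rose, and they passed in 10 and 8 of 21 alternatives.

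Of 12 coregulators none rose and 3 fell at 24 h, against 11.6% of all entries that fell. Among them Ncoa1, a coactivator of the p160 family, fell by 1.04 (SE 0.19), and in the smaller cluster none passed. At 72 h 1 of 12 passed, Ncor1 at -0.66 ± 0.22 (adjusted p = 0.047 in limma), and the direction of this list depended on the scale, since on the deposited scale 4 rose and none fell. The call was also lost without any of KD 72 h replicates 1 to 4 and NC 72 h replicates 1, 4, 5 and 6. In control cells over time 2 of 12 fell, Hdac2 by 0.72 and Smarca4 by 0.68, against 4.49% of all entries. Of 6 further genes of corticosteroid metabolism and binding, 1 could be tested at 24 h and over time and 2 at 72 h, and none passed in limma or voom, with 1 at an unadjusted p under 0.05 at 72 h, Hsd11b2. H6pd, which supplies the cofactor for the Hsd11b1 enzyme, was at 0.27 ± 0.21 and 0.44 ± 0.25. Hsd11b2, which inactivates the hormone, averaged 0.437 ± 0.443 in NC 72 h and 1.99 ± 1.07 in KD 72 h (log2 fold change 2.06 ± 0.91, adjusted p = 0.12). It held 19 and 94 reads there and passed the filter only through the knockdown libraries. In this list 1 gene passed at 72 h on the deposited scale, with a pseudocount of 1, in the larger cluster and without KD 72 h replicate 5.

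A list of 26 other genes that glucocorticoids are known to induce went both ways as well. In control cells over time 1 of 22 tested rose, Ddit4, an inhibitor of mTORC1, by 1.25 (SE 0.29), and 1 fell, Cdkn1c, but 3 rose without NC 72 h replicate 4 or 5. With the knockdown at 24 h 2 of 23 tested rose and 2 fell, with a median of 0.15, and with 1 library left out 1 to 4 rose and 1 to 3 fell. Glul, glutamine synthetase, rose by 0.71 (SE 0.15) and Angptl4, an inhibitor of lipoprotein lipase, by 0.54 (SE 0.16), while Lpin1, a phosphatidate phosphatase, fell by 0.60 (SE 0.13) and Pik3r1, a subunit of phosphoinositide kinase, fell by 0.58 (SE 0.17). At 72 h 3 of 25 rose and 1 fell, with a median of -0.14. Sult1a1, a sulfotransferase, rose by 2.81 (SE 0.69), Cdkn1c, a cell cycle inhibitor, by 2.13 (SE 0.33), and Lpin1 fell by 1.14 (SE 0.19). Sult1a1 held 26 reads in NC 72 h and 141 in KD 72 h, and it was below the filter in control cells over time. Its entry at 72 h thus needed the knockdown libraries, so its rise adds no support to the count. The split at 72 h depended on the libraries and the scale, with 4 lower without NC 72 h replicate 5, 3 lower without NC 72 h replicate 4, 2 lower without KD 72 h replicate 6, 7 lower in the larger cluster and 6 higher on the deposited scale. Read against the 22.7% and 22.3% of all entries that passed, these counts are no result about the list.

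Cdkn1c was the only gene of these lists for which the effects at the 2 times differed by test, with a difference of 1.90 ± 0.38 (adjusted p = 0.034 in limma), against 0.192% of all entries. It averaged 9.23 ± 1.58 in NC 24 h, 10.8 ± 1.86 in KD 24 h, 3.51 ± 1.92 in NC 72 h and 14.4 ± 4.29 in KD 72 h. Its level thus fell in control cells over time, by 1.52 (SE 0.30, adjusted p = 0.0052), and was higher with the knockdown at 72 h. The difference between the times passed in 22 of 33 alternatives, and was lost without KD 24 h replicate 3, without NC 24 h replicate 1, 2 or 4, without any of KD 72 h replicates 1 to 4 and without NC 72 h replicate 1.

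Of 12 genes that glucocorticoids are known to repress, 2 of 7 tested rose at 24 h, against 11.1% of all entries, and none fell. These were Ptgs2, by 2.31 (SE 0.31), and Il6, by 1.48 (SE 0.38). Ptgs2, the inducible cyclooxygenase, averaged 0.249 ± 0.10 in NC 24 h and 1.66 ± 0.663 in KD 24 h. It held 25 and 163 reads there and passed the filter only through the knockdown libraries. Entered in this way it could hardly be called lower, so its rise adds no support to the count. At 72 h Ptgs2 rose by 1.61 (SE 0.45), and Vcam1, an adhesion molecule, fell by 0.73 (SE 0.13). These were 2 of 9 tested, which is near the 22.3% of all entries. With 1 library left out the count of risen genes was 2 or 3 at 24 h and 1 or 2 at 72 h, where 2 rose without KD 72 h replicate 4. In control cells over time none of 7 tested passed in limma, with 0 at an unadjusted p under 0.05 and 0 with voom.

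Since induction had also contained a phosphodiesterase inhibitor, 8 targets of cyclic AMP were listed. In control cells over time 2 of 5 tested fell, against 4.49% of all entries, Fos by 0.78 (SE 0.18) and Crem by 0.63 (SE 0.16). At 24 h with the knockdown 1 of 5 rose, against 11.1% of all entries, Sik1 by 0.93 (SE 0.32), and without any of KD 24 h replicates 1, 5 and 6 or of the 6 control libraries the count was 0. At 72 h 4 of 6 rose, against 10.3% of all entries, with Nr4a1, an orphan nuclear receptor, at 2.20 ± 0.46 and Pde4b, a cyclic AMP phosphodiesterase, at 1.86 ± 0.28 (adjusted p = 0.0039 and 0.00040 in limma). In the smaller cluster alone 1 of 6 rose at 72 h. Nr4a1 held 17.5 reads in NC 72 h, with the averaged pair counted once, and 109 in KD 72 h. It passed the filter at 72 h only through the knockdown libraries, so its rise adds no support to the count. Fos, 1 of the 4, rose by 0.47 and passed in 7 of 21 alternatives.

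**Figure D3:**
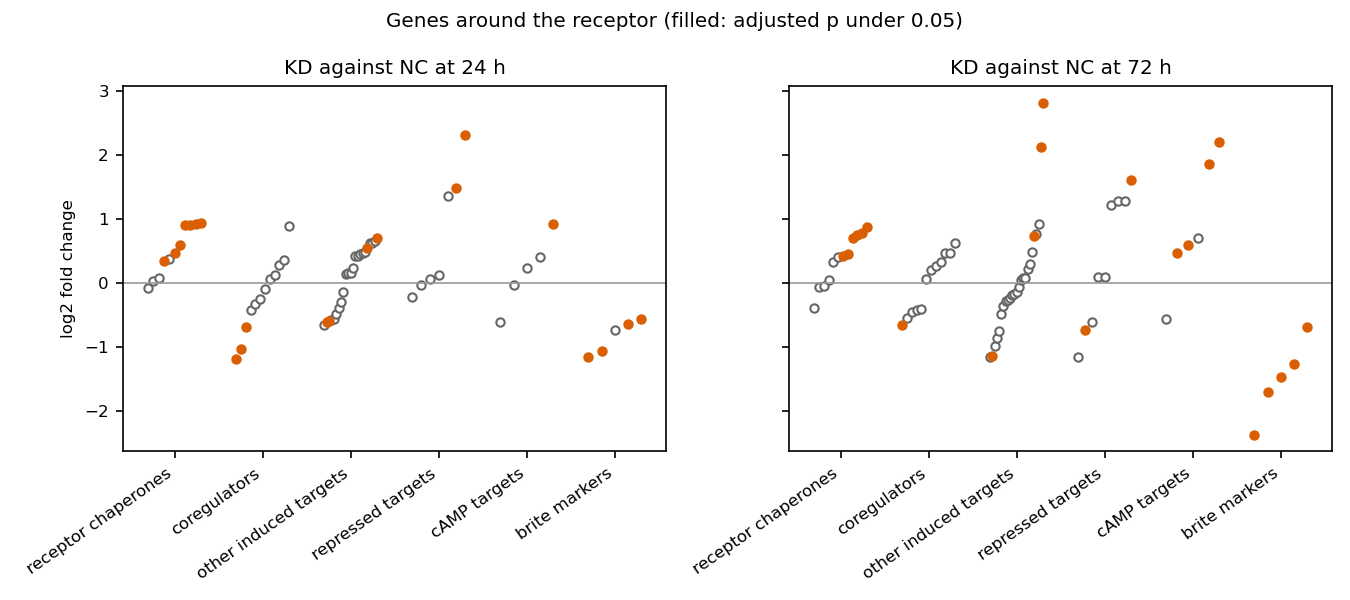
Log2 fold change with the knockdown (y axis) of each tested gene of 6 lists (x axis), at 24 h (left) and 72 h (right), with filled points past the threshold. Chaperones past the threshold all lay above 0 at both times, brite markers past the threshold all lay below 0, and the induced and repressed targets fell on both sides of 0 or, for the repressed targets at 24 h, passed only above it.

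Markers of differentiation moved beside these genes. In control cells over time 3 of 5 brite markers rose and 2 of 6 adipocyte markers fell, against 4.63% and 4.49% of all entries. The shares of all entries that rose and fell with the knockdown were 11.1% and 11.6% at 24 h and 10.3% and 12% at 72 h. With the knockdown, of 5 brite markers 4 were lower at 24 h and 5 at 72 h, with Ucp1 at -1.15 ± 0.24 and -2.37 ± 0.21, and their summed level ran from 457 to 889 in NC 24 h, 326 to 476 in KD 24 h, 1254 to 2122 in NC 72 h and 380 to 722 in KD 72 h. Without any of KD 24 h replicates 1, 2 and 5 or NC 24 h replicates 1 to 4, 2 of 5 were lower at 24 h. Of 6 adipocyte markers 3 were lower at 24 h and 2 at 72 h, led by Adipoq at -0.55 ± 0.15 and -0.96 ± 0.15, and without KD 24 h replicate 5 none was lower at 24 h. Of the preadipocyte markers none of 6 tested passed at 24 h in limma or voom, with 0 at an unadjusted p under 0.05. At 72 h 2 of 5 rose, Cd34 by 2.02 and Pdgfrb by 0.59, while over time 1 of 4 rose. Cd34, with 22 reads in NC 72 h and 112 in KD 72 h, passed the filter at 72 h only through the knockdown libraries. Of 3 tested macrophage markers Csf1r rose at both times, by 1.22 and 1.23, and over time in control cells by 0.81, a call lost without most single libraries, while Lyz2 fell by 3.68 at 72 h, and the defining markers Ptprc and Adgre1 averaged at most 0.404 in every group. No endothelial marker passed the filter. The part of a change in the makeup or state of the cells in the values of Tsc22d3 and Sgk1 was not tested.

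The genes whose levels over the 23 samples were most like those of the members were looked for among 11145 genes with 1 entry each. For Sgk1 they were Mtmr11 (Pearson r 0.89), Smim14 (0.89) and Cmtm3 (0.86), and for Tsc22d3 they were Heph (0.88), Ubn2 (0.87) and Ephx2 (0.87). With the group means removed these fell to 0.42 to 0.67 and 0.49 to 0.66, so the groups took part in the likeness. For Nr3c1 they were Spg21 (0.85), Pcbp2 (0.83) and Map3k12 (0.83), and these kept 0.80 to 0.81 within groups. Their rank correlations were lower, with Spearman's rho of 0.72, 0.58 and 0.58. For Fkbp5 they were Nab1, Kif1c and Myeov2 and for Hsd11b1 they were Sdc4, Tspyl1 and Ing4, with r between 0.81 and 0.85 and rho between 0.39 and 0.68. KD 24 h replicate 6, the library of lowest depth, held the highest value of both Nr3c1 and Fkbp5.

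**Figure D4:**
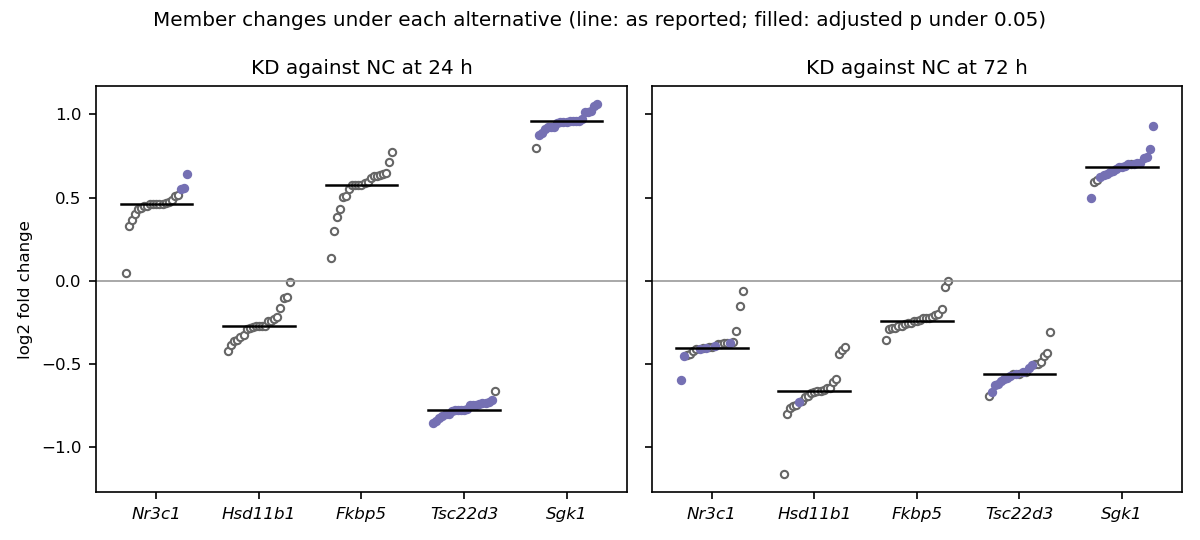
Log2 fold change with the knockdown (y axis) of the 5 tested members (x axis) under each of 21 alternatives, at 24 h (left) and 72 h (right), with the reported value as a line and filled points past the threshold. At 24 h Tsc22d3 and Sgk1 passed in 20 of 21 alternatives each, and at 72 h in 11 and 18 of 21.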

How the data were processed

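Bulk RNA barcoding libraries, which read the 3′ ends of polyadenylated transcripts, were sequenced from 24 samples. The authors mapped and counted reads with a Genomatix annotation that holds RefSeq, Ensembl and GenBank entries side by side, and deposited RPKM per entry in 1 table, and no counts. The decimal commas of that table were read as points. Read numbers and mapped totals were recovered from the steps of the low RPKM values, of which 93.0% to 93.7% in a library came out whole, and served for depths, the filter and 1 alternative.

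Each pair of groups was fitted alone with limma 3.58.1 (intensity trend) in R 4.3.3 on log2(scaled RPKM + 0.1), a scale that understates changes of low genes, after a trimmed-mean scaling (30% of log ratios and 5% of levels). Entries entered with a level worth 10 reads at the median depth in a number of samples equal to the smaller group, and 15 reads in total. An entry could pass through 1 group alone, and it could then hardly be called lower in that group. A call is a Benjamini-Hochberg adjusted p under 0.05 over all entries tested. The difference between times is an interaction over all groups. Members below the filter had exact permutation tests (scipy 1.17.1). The fits were tested on simulated data. Same-numbered libraries did not deviate together. Positions and spans are from GENCODE M21 (GRCm38) and promoters from RefSeq (GRCm38.p6), which had no window for Nr3c1 and Zbtb16. Named genes are the 7 members, up to 2 passing genes per list and direction with the largest change, and the 3 genes most like each tested member. Csf1r, Lyz2, H6pd, Hsd11b2 and the Tsc22d3 and Nr3c1 entries described singly go beyond this rule and were chosen after their values were seen. The values of 1 coregulator that the rule would name are not reported here. The members and the gene lists were chosen with earlier results of these data known. Alternatives were the deposited scale, a pseudocount of 1, no filter, 1 entry per gene, voom on recovered reads, the replicate number as a block, all 24 libraries as separate samples, each cluster of libraries alone, each library left out, and other table entries of a member.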

Additional observations from a re-analysis of the deposited data

Results flagged for a closer look

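Of 28 member and group combinations, 3 held a sample whose gap to its nearest neighbour took an unusually large part of the range of its group, by Dixon's criterion at the 95% level, where chance flags about 1 in 20. Fkbp5 in KD 24 h replicate 6 stood at 7.16 scaled RPKM, with a gap of 0.764 of the range, and this library had the lowest depth. Sgk1 in KD 24 h replicate 4 stood lowest in its group at 11.4, with a gap of 0.686 of the range. Nr3c2 in NC 72 h replicate 4 stood at 0.0649, which is a single read in a group whose other samples held none.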

How the results depend on the processing

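With the knockdown at 24 h Tsc22d3 and Sgk1 each passed in 20 of 21 alternatives, and both missed in the smaller cluster of libraries, with 2 libraries in a group, where 0 members passed. The count of passing members at 24 h was 2 or 3 when 1 library was left out. At 72 h it was 1 on the deposited scale and without the filter, 0 in the smaller cluster and 0 to 3 when 1 library was left out, with 0 without NC 72 h replicate 5. For control cells over time the count was 1 on the deposited scale, 1 with voom, 2 with all 24 libraries separate, 1 in the larger cluster and 0 to 1 when 1 library was left out. The difference between the times had 1 passing member in the larger cluster (Nr3c1) and 0 in every fit with 1 library left out. Differences between the times changed sign for 2 members, that of Tsc22d3 in the smaller cluster (-0.029) and that of Hsd11b1 in 1 other table entry (0.061). The causes were not tested.

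The replicate numbers shared by the groups did not pair the libraries, since the mean correlation of same-numbered deviations was -0.05 at 24 h, 0.02 at 72 h and 0.03 for controls over time, with 0, 1 and 2 of 6 pairs over 0.1. With the replicate number as a block the passing members at 24 h stayed 2 and at 72 h the count was 2 as well, but Sgk1 missed (0.70, adjusted p = 0.072 in limma) and Hsd11b1 passed (adjusted p = 0.046). The block gave 0 passing members for control cells over time and 0 for the difference between times, and over all entries 8743, 8213 and 2899 calls at 24 h, 72 h and over time against 11821, 12158 and 4818 without it. Calls over all entries for the difference between times ran from 28 with the block to 1837 in the smaller cluster, against 114. Without the filter the calls over all entries were 8703 at 24 h and 9655 at 72 h, and in the smaller cluster 1562 and 5764 and 1745 over time. Depth limits Nr3c2 and Zbtb16, with 21 and 93 reads in all, to no statement on change.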
